A study of Mus musculus with 8 samples.

Results

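The common gamma chain is the receptor subunit shared by the receptors for IL-2, IL-4, IL-7, IL-9, IL-15 and IL-21, and 8 genes that work with it are described here in tumor-infiltrating immune cells. They are Il7r, Il21r, Il4ra and Il9r, which encode the ligand-binding chains for IL-7, IL-21, IL-4 and IL-9; Il15 and Il15ra, the cytokine IL-15 and the chain that presents it; and Jak1 and Jak3, the kinases of the pathway. The members were chosen by name and make up 8 of the 27998 genes of the deposited count matrix. All 8 were found there by symbol. The rule that picked them used names and no levels, but earlier results of these data were known when they were chosen. The chains of the IL-2 receptor itself, Il2ra, Il2rb and the common gamma chain gene Il2rg, are given only as companions.

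CD45+ cells from B16-OVA tumors, a mouse melanoma line that expresses ovalbumin, were sorted with enrichment for CD8+ cells and profiled as single cells by 10x Genomics 5′ chemistry. Each condition and day gave 1 library, 8 in all. Tumors of 5 mice were pooled per condition, so a library is 1 pool and has no replicate. Recipients were female C57BL/6 mice bought at an age of 6 weeks, and received no lymphodepletion. Treated mice received 2 infusions of OT1 CD8 T cells, which carry a receptor for ovalbumin and came from CD45.1+ congenic C57BL/6 donors of 6 to 10 weeks.

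In untransduced ACT (days 5 and 12) the OT1 cells carried no transgene. In PD1d/IL-2v ACT (day 12) a retroviral vector made them secrete PD1d, a PD-1 decoy fused to an antibody Fc part, together with IL-2v, an IL-2 variant that binds the IL-2Rβγ receptor and not CD25. In PD1d/IL-33 ACT (day 12) they secreted PD1d and the alarmin IL-33. In PD1d/IL-2v/IL-33 ACT (days 5, 12 and 26), called orthogonal ACT below, both engineered cell types were given as an equal mix. Non-treated mice, labelled day 5, bore the tumor and received no cells. Transferred and host CD8 T cells were not separated in the values below, so the CD8 T cells of treated tumors are a mixture of both.

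IL-7 maintains naive and memory T cells, IL-15 maintains NK cells and memory CD8 T cells, IL-21 acts on T, B and NK cells, IL-4 drives type 2 responses and the alternative activation of macrophages, and IL-9 is a type 2 cytokine for T cells, mast cells and innate lymphoid cells. Jak1 binds the ligand-binding chain of the receptors for IL-4, IL-7, IL-9 and IL-21, and the beta chain of those for IL-2 and IL-15. The common gamma chain binds Jak3. The pair of kinases phosphorylates STAT proteins, mainly STAT5, and STAT6 or STAT3 for IL-4 and IL-21. IL-15 differs from the other ligands in its delivery: a myeloid or dendritic cell holds it on its own IL-15 receptor alpha chain and shows it to the beta and gamma chains of a neighbouring lymphocyte. Il7r is commonly switched off when a T cell is activated and kept or regained in memory cells.

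Because the results below turn on Il7r and Il21r, the 300 bases around their starts (250 before and 50 after, RefSeq, GRCm38.p6, gene strand) are shown. Of the members, 7 had such a promoter in the table, 8 promoters in all; Il15 had none. The Il7r promoter lies at chr15:9529827-9530126 on the minus strand, where the gene itself spans bases 9506159 to 9529941. Its capitals mark TTCAGGGAA, a match to TTCNNNGAA, the core letters bound by STAT proteins, and TGTGGT, the core letters bound by Runx factors. The Il21r promoter lies at chr7:125603179-125603478 on the plus strand, and the gene spans bases 125603252 to 125634397. Its capitals mark the match to TGTGGT, which is on the opposite strand and so reads ACCACA. For both genes the start used lies inside the gene span given, so part of the 250 bases before it falls within the gene.
Il7r: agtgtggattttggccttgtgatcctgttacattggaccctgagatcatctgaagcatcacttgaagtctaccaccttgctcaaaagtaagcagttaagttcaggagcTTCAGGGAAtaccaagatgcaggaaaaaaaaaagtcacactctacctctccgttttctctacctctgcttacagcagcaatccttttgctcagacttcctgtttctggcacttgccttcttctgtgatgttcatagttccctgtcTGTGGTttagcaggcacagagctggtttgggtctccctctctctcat
Il21r: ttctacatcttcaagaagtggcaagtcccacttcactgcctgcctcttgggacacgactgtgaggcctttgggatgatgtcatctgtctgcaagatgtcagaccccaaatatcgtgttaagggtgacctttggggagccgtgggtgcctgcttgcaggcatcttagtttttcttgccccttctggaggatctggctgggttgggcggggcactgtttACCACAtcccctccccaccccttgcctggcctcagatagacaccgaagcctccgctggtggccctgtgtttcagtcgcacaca
These motifs were searched on both strands together with GAAANNGAAA, TGTTTAC and GGGANNNNCC. Among 32851 promoters of the same length, 8.30% held TTCNNNGAA and 16.8% held TGTGGT. The Il7r promoter was the only member promoter with TTCNNNGAA, and TGTGGT was also found in that of Il9r. The Il21r promoter further held TGTTTAC (3.65% of all promoters), which overlaps its TGTGGT match by 2 bases, and GGGANNNNCC (20.7%). GAAANNGAAA (3.44% of all) was in no member promoter. A match describes letters only and shows no binding.

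The deposited matrix holds 98669511 UMIs in 15700 barcodes, between 1387032 and 24917112 UMIs per library. After the filters of the study's methods 12827 cells were kept, and 10374 of them fell into gates set on raw marker UMIs: 5089 CD8 T, 1200 CD4 T, 2475 NK, 1315 myeloid and 295 dendritic cells (DC). Markers that the gates did not use were compared between the gates. The summed level of Lck, Lat, Cd6, Cd28 and Thy1 was 1994 to 3194 CPM (UMIs per 1000000 UMIs of the gate) in CD8 T cells, 1836 to 3461 in CD4 T cells and 692 to 1337 in NK cells, and 6.1 to 35.7 in myeloid cells and DC. B cell markers were at 0 to 3.6 CPM in all gates. The NK set was Eomes, Klre1, Klra8, Klrb1f and Tyrobp. Its sum did not separate NK cells (3491 to 5116 CPM) from myeloid cells (2415 to 3916 CPM). Over all libraries together, Tyrobp alone was at 3318 CPM in myeloid cells against 2771 in NK cells. The rest of the set did separate them. Eomes, Klre1, Klra8 and Klrb1f were at 254, 603, 388 and 157 CPM in NK cells. In myeloid cells they were at 0.49, 1.62, 1.21 and 3.56 CPM. The DC set, which includes MHC class II genes, was at 10243 to 20177 CPM in myeloid cells and 30576 to 46292 in DC. Of 15700 barcodes, 286 occurred in more than 1 library. Untransduced ACT at day 12 and non-treated tumors were small, with 41 and 78 CD8 T cells, and set the limits of precision. The deposited records carry 5 different codes for the libraries, called batch codes here. What a code stands for is not given in the sources used here. Only 2 of the comparisons below lie within 1 batch code: PD1d/IL-33 against PD1d/IL-2v ACT, and orthogonal against untransduced ACT at day 12. In all others batch code and condition cannot be told apart.

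**Figure D1:**
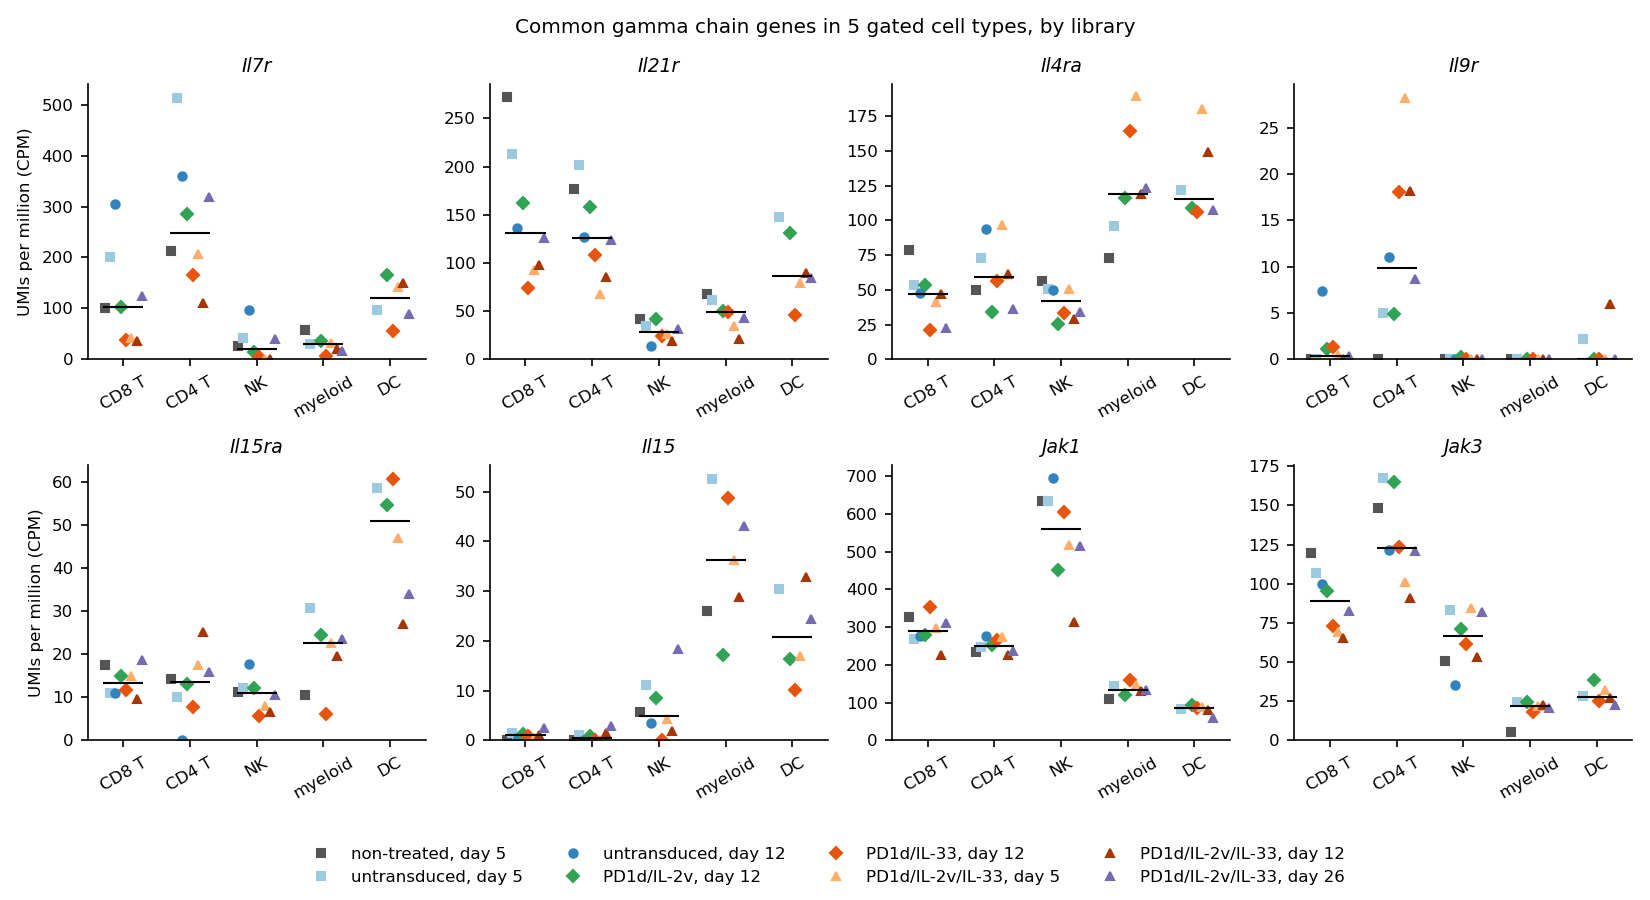
Level of each member (vertical axis, CPM, starting at 0) in the 5 gates (horizontal axis), with 1 point per library of at least 20 cells of the gate. Il15 and Il4ra lay highest in myeloid cells or DC, Il7r and Jak3 highest in CD4 T cells and Jak1 highest in NK cells.

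Each member had its own distribution over the 5 cell types. Differences between cell types were tested with edgeR's quasi-likelihood test on UMIs summed per library and gate, with the library as a block and p adjusted over 8995 genes. Here the libraries are the replicates, and they also differ in treatment. Il9r did not pass the filter on low counts, so 7 of the 8 members were tested. Between CD4 T and CD8 T cells 3 of the 7 were called (2 higher in CD4 T cells, 1 lower), beside 24.4% of all genes. Between NK and CD8 T cells 5 of 7 were called (2 higher, 3 lower), beside 35.0% of all genes. Between myeloid and CD8 T cells all 7 tested members were called (3 higher, 4 lower), beside 72.1% of all genes. Between DC and myeloid cells 5 of 7 were called (3 higher, 2 lower), beside 33.6% of all genes. The median log2 difference of the tested members was -0.06, -0.38, -0.94 and 0.31 in these 4 contrasts, and that of all genes was -0.01, 0.01, -0.11 and 0.03. The remaining pairs, used to order the levels, called 6 of 7 members for DC against CD8 T cells (56.3% of all genes), 6 for NK against CD4 T cells (35.0%), 7 for myeloid against CD4 T cells (65.8%), 5 for DC against CD4 T cells (50.7%), 7 for myeloid against NK cells (70.2%) and 7 for DC against NK cells (54.1%).

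**Figure D2:**
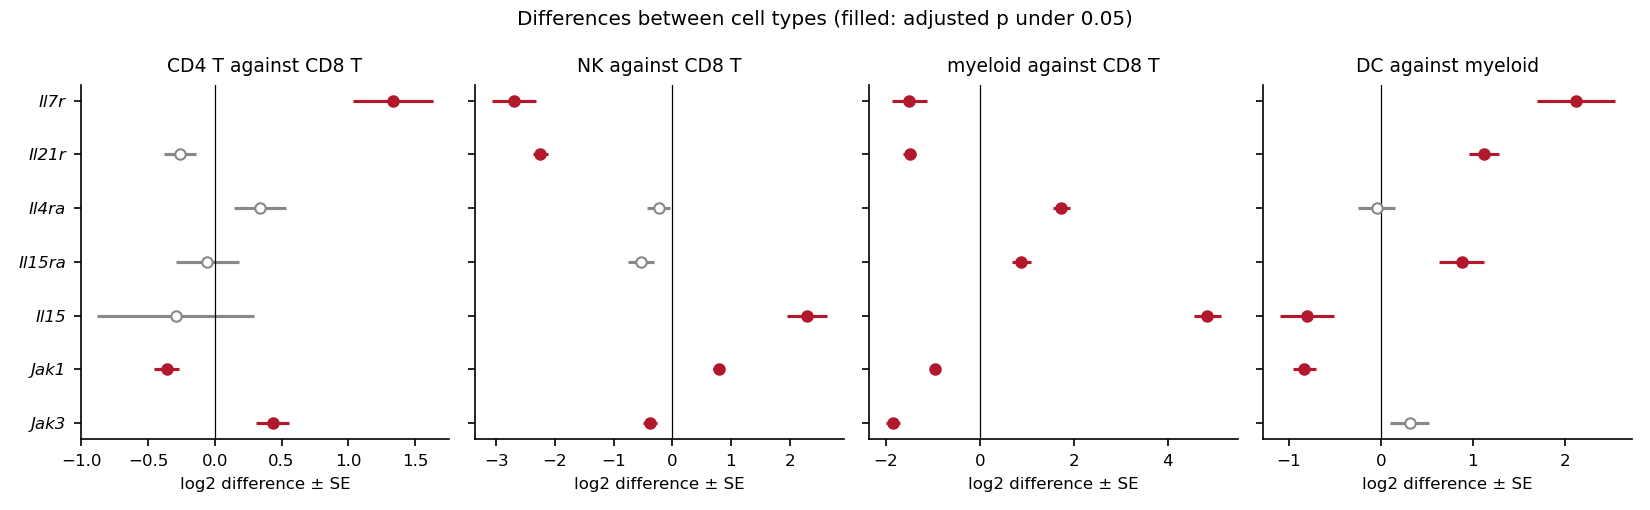
Log2 difference in level between pairs of cell types (horizontal axis, fitted value with its standard error, edgeR) for the 7 members tested (rows), filled where the adjusted p was under 0.05. Il7r was higher in CD4 T than in CD8 T cells and lower in NK cells, and Il15 was higher in myeloid cells than in CD8 T cells by 4.85 on the log2 scale.

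Il7r, the IL-7 receptor alpha chain, was the member with the widest range among T cells. In CD4 T cells its level was 212.3 CPM in non-treated tumors, 514.2 and 359.8 in untransduced ACT at days 5 and 12, 285.1 in PD1d/IL-2v ACT, 165.0 in PD1d/IL-33 ACT, and 207.7, 110.7 and 318.3 in orthogonal ACT at days 5, 12 and 26. In CD8 T cells of the same libraries, in the same order, it was 100.2, 201.4, 306.0, 103.3, 37.1, 42.5, 35.2 and 124.6 CPM. In every library the CD4 T cells were above the CD8 T cells, and in both cell types the untransduced libraries were highest. The log2 difference was 1.34 (SE 0.298, adjusted p = 0.00084, higher in 8 of 8 libraries). In NK cells Il7r ranged from 1.1 to 95.9 CPM and lay below the CD8 T cells in all 8 libraries (log2 difference -2.70, SE 0.379, adjusted p = 5.6e-07).

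Il7r in DC, at 55.7 to 165.6 CPM in the 6 libraries with at least 20 DC, was in the range of T cells. Over all libraries together, 99 mature DC (defined below) held 242.6 CPM and 196 other DC held 62.5. In DC as a whole Il7r was higher than in myeloid cells (6.1 to 57.3 CPM) in 6 of 6 libraries (log2 difference 2.13, SE 0.425, adjusted p = 0.00014). In the order of medians, CD4 T cells (249 CPM) were followed by DC (120), CD8 T cells (102), myeloid cells (30.3) and NK cells (19.6). DC did not differ beyond the spread from CD4 T cells (log2 difference -0.71, SE 0.367, adjusted p = 0.11) or from CD8 T cells (0.62, SE 0.367, adjusted p = 0.15). The other neighbours differed, myeloid against NK cells by 1.20 (SE 0.444, adjusted p = 0.017). With each cell thinned to 2000 UMIs, 33.3% of CD4 T cells, 15.8% of CD8 T cells and 20.3% of DC had an Il7r UMI, against 3.27% of myeloid and 1.74% of NK cells. The NK share, at a median of 5403 UMIs per cell against 6094 in CD8 T cells, is the lowest. It is pooled over libraries whose NK levels ran from 1.1 to 95.9 CPM, so it does not bound the free RNA of a single library.

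Il21r, the IL-21 receptor chain, was shared between the T cells and DC. In CD8 T cells it was 272.3 CPM in non-treated tumors, 212.7 and 136.4 in untransduced ACT at days 5 and 12, 161.9 in PD1d/IL-2v ACT, 74.1 in PD1d/IL-33 ACT, and 93.1, 97.3 and 125.6 in orthogonal ACT at days 5, 12 and 26. Its CD4 T cell levels, 67.2 to 201.3 CPM, overlapped these. The difference between CD4 T and CD8 T cells was not past the threshold (log2 -0.26, SE 0.12, adjusted p = 0.12, lower in 7 of 8 libraries), nor was that between DC and CD4 T cells (-0.10, SE 0.149, adjusted p = 0.59). DC were slightly below CD8 T cells (log2 -0.37, SE 0.143, adjusted p = 0.029). Over all libraries together, mature DC held 184.8 CPM of Il21r and other DC held 63.8. The order then went to myeloid cells (20.9 to 67.7 CPM), lower than DC by 1.12 on the log2 scale (SE 0.158, adjusted p = 5.7e-07), and to NK cells (14.2 to 42.2 CPM), lower than CD8 T cells in 8 of 8 libraries (log2 -2.25, SE 0.133, adjusted p = 7.6e-16).

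Il4ra, the IL-4 receptor alpha chain, which also serves in the IL-13 receptor, was higher in myeloid cells and DC than in the 3 lymphocyte gates. Myeloid cells held 72.9 CPM in non-treated tumors, 96.0 in untransduced ACT at day 5, 115.9 in PD1d/IL-2v ACT, 164.7 in PD1d/IL-33 ACT and 189.6, 119.0 and 123.4 in orthogonal ACT at days 5, 12 and 26. The lowest value belonged to non-treated tumors and the highest to orthogonal ACT at day 5. DC held 106.3 to 180.3 CPM and did not differ from myeloid cells (log2 -0.04, SE 0.205, adjusted p = 0.91). Myeloid cells exceeded CD8 T cells (20.8 to 78.4 CPM) in 6 of 7 libraries, by 1.74 on the log2 scale (SE 0.184, adjusted p = 2.5e-10). Among lymphocytes the medians were 59.2 CPM in CD4 T, 47.4 in CD8 T and 42.0 in NK cells. Neither neighbour pair passed the threshold (CD4 T against CD8 T cells 0.34, SE 0.195, adjusted p = 0.22; NK against CD8 T cells -0.23, SE 0.192, adjusted p = 0.37), while NK cells were below CD4 T cells (-0.57, SE 0.209, adjusted p = 0.031). Il4ra UMIs were found in 21.1% of myeloid cells, 21.4% of DC and 7.11% of CD8 T cells after thinning, and no gate here is known to lack the gene, so the share due to free RNA could not be set.

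Il9r, the IL-9 receptor chain, was nearly restricted to CD4 T cells among the 5 gates, where 88 UMIs gave 12.5 CPM. CD8 T cells held 18 UMIs in all, DC 3, NK cells 1 and myeloid cells 0. After thinning, 20 of 1200 CD4 T cells (1.67%) had an Il9r UMI, 0 of 1315 myeloid cells (which allows a share of up to 0.228%) and 0 of 2475 NK cells (up to 0.121%); these limits, 3 counts of the total, concern cells with a UMI and not cells that express the gene. Per library the CD4 T cell level was 0 CPM in non-treated tumors, 5.0 and 11.1 in untransduced ACT at days 5 and 12, 4.9 in PD1d/IL-2v ACT, 18.0 in PD1d/IL-33 ACT and 28.3, 18.2 and 8.7 in orthogonal ACT at days 5, 12 and 26. These values rest on 2 to 37 UMIs each where any were found. With no filter on low counts, the excess in CD4 T over CD8 T cells was 4.18 on the log2 scale (SE 0.47, adjusted p = 1.9e-13).

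Most Il9r lay in Foxp3-negative CD4 T cells, with 34.2 CPM in orthogonal ACT at day 5, 23.4 in the same treatment at day 12 and 23.4 in PD1d/IL-33 ACT. Its level was 12.4 CPM in orthogonal ACT at day 26, 7.5 in PD1d/IL-2v ACT and 2.2 in untransduced ACT at day 5. Foxp3-positive cells, which mark regulatory T cells, held 2.5 to 9.5 CPM. The difference between both did not pass the test (log2 -1.40, SE 0.58, adjusted p = 0.14), and by edgeR none of the 8 members tested passed it, beside 12.0% of 9097 genes, with 1 member at an unadjusted p under 0.05 and none by DESeq2. The CD4 T gate also carried the genes of type 2 lymphocytes: the summed level of Il13, Rora and Areg was 304 to 980 CPM in the 4 libraries of days 5 and 12 without IL-33, and 2003, 7487 and 2322 CPM in PD1d/IL-33 ACT and orthogonal ACT at days 5 and 12. Their part in the Il9r values was not tested.

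Il15, the cytokine itself, was a myeloid and DC transcript. Myeloid cells held 26.0 CPM in non-treated tumors, 52.6 in untransduced ACT at day 5, 17.2 in PD1d/IL-2v ACT, 48.8 in PD1d/IL-33 ACT and 36.2, 28.8 and 43.0 in orthogonal ACT at days 5, 12 and 26. The highest and lowest values belonged to untransduced ACT at day 5 and PD1d/IL-2v ACT, with no common order by treatment. CD8 T cells held 0 to 2.5 CPM and CD4 T cells 0 to 2.9 CPM. Only 0.314% of CD8 T cells had an Il15 UMI after thinning, against 5.25% of myeloid cells, and the T cell share is read as background. The excess of myeloid over CD8 T cells was 4.85 on the log2 scale (SE 0.289, adjusted p = 8.8e-17, higher in 7 of 7 libraries). DC lay at 10.1 to 32.9 CPM, below myeloid cells in 5 of 6 libraries (log2 -0.80, SE 0.294, adjusted p = 0.033), a call that was lost with DESeq2 (adjusted p = 0.083), without the block (0.12), with the cell filter of the later experiment (log2 -0.27, 0.63) or a stricter gate (0.16), and without untransduced ACT at day 5 (0.079) or orthogonal ACT at day 5 (0.10) or day 26 (0.077). NK cells lay between, at 0 to 18.5 CPM, and above CD8 T cells in 7 of 8 libraries (log2 2.30, SE 0.341, adjusted p = 1.6e-06).

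Il15ra, the chain that presents IL-15, was highest in DC. Its level in DC was 58.6 CPM in untransduced ACT at day 5, 54.6 in PD1d/IL-2v ACT, 60.7 in PD1d/IL-33 ACT and 46.9, 26.9 and 34.0 in orthogonal ACT at days 5, 12 and 26. These values rest on 9 to 32 UMIs each. DC exceeded myeloid cells (6.1 to 30.7 CPM) in 6 of 6 libraries, by 0.88 on the log2 scale (SE 0.245, adjusted p = 0.0048), and myeloid cells exceeded CD8 T cells (9.6 to 18.6 CPM) in 5 of 7 (0.88, SE 0.208, adjusted p = 0.00031). CD4 T, CD8 T and NK cells, with medians of 13.6, 13.3 and 10.9 CPM, did not differ beyond the spread (CD4 T against CD8 T cells -0.06, SE 0.238, adjusted p = 0.91; NK against CD8 T cells -0.54, SE 0.227, adjusted p = 0.065).

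Within the DC, the pooled levels of Il15ra and Il15 were higher in mature DC, the cells with at least 5 UMIs of Ccr7, Fscn1 and Ccl22. Over all libraries together, 99 mature DC held 119.8 CPM of Il15ra and 196 other DC held 12.0, and Il15 was at 55.8 against 7.98 CPM. After thinning 24.2% of mature and 3.57% of other DC had an Il15ra UMI. Only orthogonal ACT at day 5 had 20 mature DC or more, so the fit rests on 1 library of mature DC, with 94.5 CPM of Il15ra from 21 UMIs, and 4 of other DC, with 9.8 to 17.4 CPM. That fit assumes that the lone library of mature DC varies as the other sums do, and it is no replicated comparison. There Il15ra was higher by 2.93 (log2, SE 0.783, adjusted p = 0.021), the 1 member called of 8, beside 6.51% of all genes. Il15 (2.58, SE 0.847, adjusted p = 0.068), Il7r (1.71, SE 0.601, adjusted p = 0.094) and Il21r (1.31, SE 0.46, adjusted p = 0.092) did not pass. With a minimum of 10 cells, chosen after the data were seen, 5 libraries of mature DC entered and all 4 genes passed, Il15ra by 3.22 (adjusted p = 4.7e-07), Il15 by 3.09 (6.0e-07), Il7r by 2.16 (1.2e-05) and Il21r by 1.66 (9.4e-06). Between C1q-positive macrophages and C1q-low myeloid cells no member of 8 passed by edgeR, beside 9.37% of all genes, with 2 members at an unadjusted p under 0.05 and none by DESeq2. Of these, Il15 was lower in C1q-positive cells in 5 of 5 libraries (log2 -0.78, SE 0.296, adjusted p = 0.10).

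Jak1, which binds the receptor chains that pair with the common gamma chain and also serves interferon receptors, was found in every cell type. It was highest in NK cells. The NK cell level was 633.3 CPM in non-treated tumors, 634.9 and 696.3 in untransduced ACT at days 5 and 12, 450.6 in PD1d/IL-2v ACT, 603.8 in PD1d/IL-33 ACT and 518.1, 314.5 and 514.2 in orthogonal ACT at days 5, 12 and 26. CD8 T cells held 225.7 to 354.4 CPM, CD4 T cells 225.5 to 276.8, myeloid cells 109.3 to 158.6 and DC 58.5 to 92.8. The ranges of NK cells and CD8 T cells overlapped across libraries, but NK cells were higher within each of the 8 (log2 0.79, SE 0.0914, adjusted p = 1.2e-08). All neighbours in this order differed: CD4 T cells were below CD8 T cells in 7 of 8 libraries (-0.36, SE 0.0942, adjusted p = 0.0041), myeloid cells below CD4 T cells in 7 of 7 (-0.58, SE 0.103, adjusted p = 8.1e-06) and DC below myeloid cells in 6 of 6 (-0.83, SE 0.124, adjusted p = 1.5e-06).

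Jak3, the kinase bound to the common gamma chain itself, was a lymphocyte gene with its highest level in CD4 T cells, at 91.0 to 167.4 CPM. CD8 T cells held 65.0 to 119.8 CPM, lower in 8 of 8 libraries (CD4 T against CD8 T cells 0.43 on the log2 scale, SE 0.123, adjusted p = 0.0083). NK cells held 35.5 to 84.2 CPM, below CD8 T cells in 7 of 8 (-0.38, SE 0.124, adjusted p = 0.015). Myeloid cells (5.2 to 24.4 CPM) and DC (22.3 to 38.2 CPM) were lowest, and the difference between them did not pass the threshold (0.31, SE 0.21, adjusted p = 0.27, higher in DC in 6 of 6 libraries).

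The rest of the pathway, a list of 25 genes of which 20 were tested between the main gates, is described by its counts. In the contrasts below, in their order, 24.4%, 35.0%, 72.1% and 33.6% of all genes were called. In CD4 T against CD8 T cells 11 were higher and 1 lower, led by Socs2 (log2 2.37), a feedback inhibitor of cytokine signals, the IL-2 receptor alpha chain Il2ra (2.22), Il2 (2.02), the survival kinase Pim1 (1.37) and Jak2 (1.33), while the survival gene Bcl2 was lower (-1.83). The median of the 20 was 0.51, against -0.01 for all genes. In NK against CD8 T cells 6 were higher, among them Il2rb (1.37) and Bcl2 (0.99), and 4 lower, among them Il2 (-3.40) and Il2ra (-2.69). In myeloid against CD8 T cells 10 were higher, led by Il13ra1 (9.18), the chain that pairs with Il4ra in the IL-13 receptor, and Socs3 (3.81), and 8 lower, led by Il2rb (-6.59). In DC against myeloid cells 5 were higher, led by Socs2 (4.86) and Il2ra (2.96), and 5 lower, among them Socs3 (-1.45) and Il13ra1 (-1.23).

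In the sub-gates, 22 genes of the list were tested. Foxp3-positive against Foxp3-negative CD4 T cells called 3 higher and 5 lower, beside 12.0% of all genes. Il2ra (2.40) led the higher genes, and the cytokines Il2 (-5.27), Il4 (-2.75) and Il9 were among the lower. The Il9 call rests on 1 library: orthogonal ACT at day 5 held 1086 Il9 UMIs in Foxp3-negative cells (1093 CPM), and every other sum of both sub-gates held 0. In mature against other DC, again with 1 library of mature DC, Socs2 (3.77), Stat5a (2.51), Stat5b (1.82) and Stat3 (1.77) were higher. C1q-positive against C1q-low myeloid cells called 1 of the 22 higher, Socs2 (1.67), and 1 lower, Socs3 (-1.01), beside 9.37% of all genes. Il2rg, the common gamma chain gene, was higher in CD4 T than in CD8 T cells by 0.28 (edgeR, adjusted p = 0.040). It was lower in myeloid than in CD8 T cells (log2 difference -0.80, adjusted p = 9.1e-08).

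The study asked what IL-2v, IL-33 and their combination do to CD8 T cells in the tumor, and the members were compared between libraries for that purpose. With 1 library per condition and day there is no test. Differences are given as log2 ratios of CPM with 10 CPM added, with 95% intervals that cover counting error only, and a ratio of 1 or more in size, a 2-fold difference, is called past 2-fold among genes with at least 50 UMIs in both libraries together. In CD8 T cells 6 of the 8 members reached 50 UMIs, all but Il9r and Il15. Ratios understate differences of low genes because of the added CPM.

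**Figure D3:**
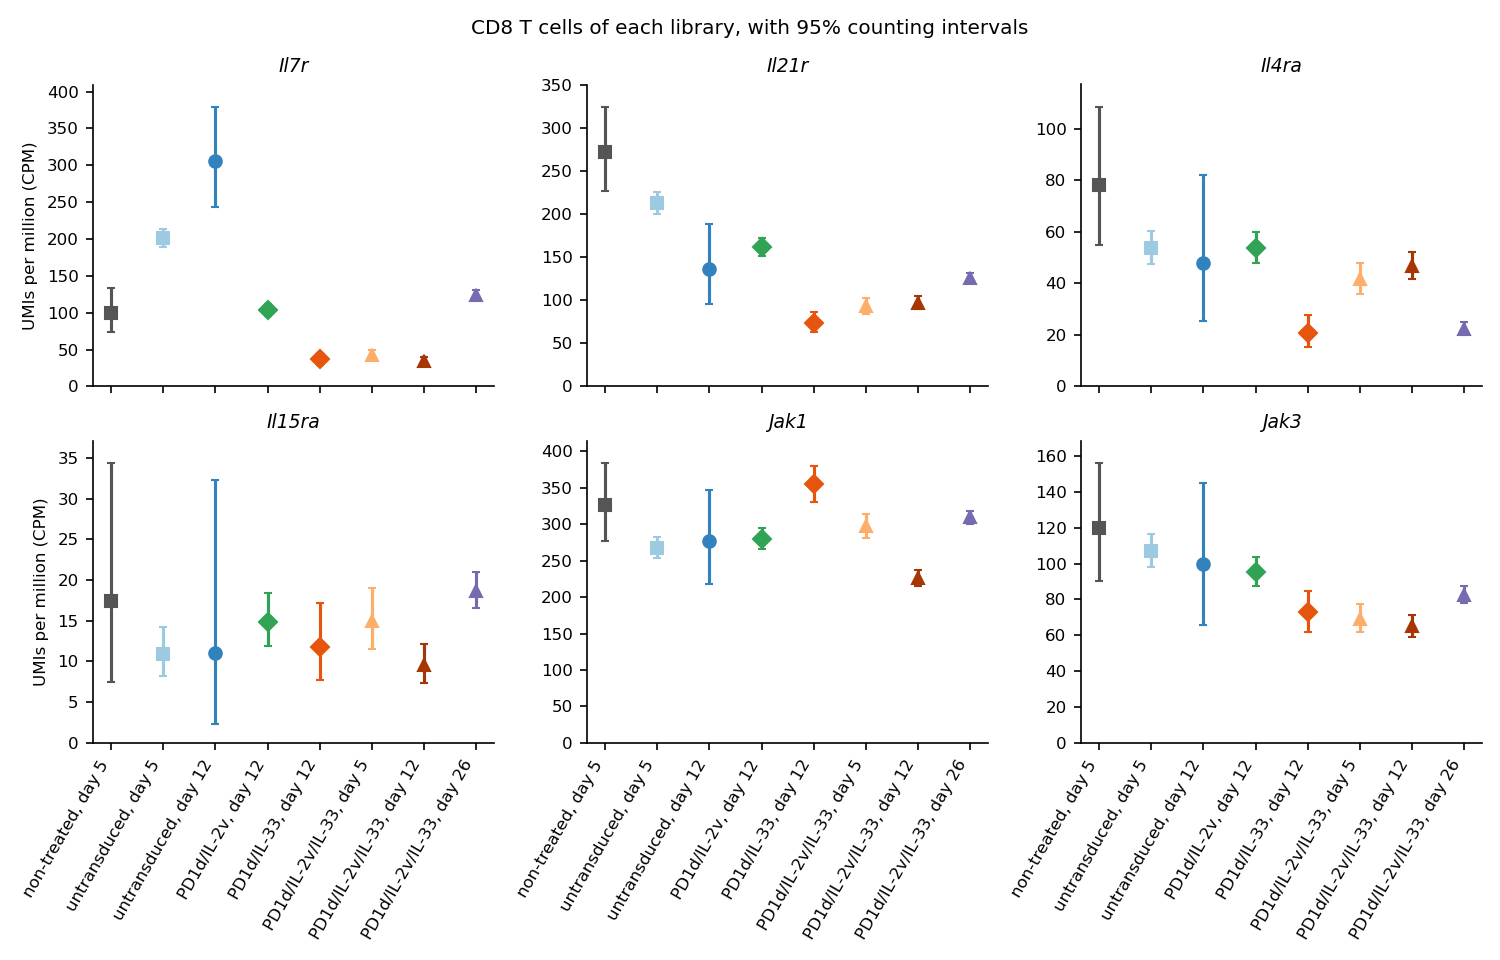
Level of 6 members in the CD8 T cells of each of the 8 libraries (vertical axis, CPM, starting at 0; horizontal axis, library), with exact 95% Poisson intervals of the counts. Il7r lay at 35.2 to 42.5 CPM in the 3 libraries of days 5 and 12 with IL-33-secreting cells and at 100.2 to 306.0 CPM in the other 5.

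Il7r was lower in CD8 T cells wherever IL-33-secreting cells had been given, up to day 12. The level was 37.1 CPM in PD1d/IL-33 ACT, 42.5 and 35.2 in orthogonal ACT at days 5 and 12, and 100.2 to 306.0 CPM in the 4 libraries of the same days without IL-33. Between PD1d/IL-33 and PD1d/IL-2v ACT, which shared a batch code, the log2 ratio was -1.27 (interval -1.54 to -0.99). Orthogonal ACT was also lower than PD1d/IL-2v ACT at day 12 (-1.33, interval -1.51 to -1.15) and than untransduced ACT at day 5 (-2.01, interval -2.20 to -1.82). It was lower than untransduced ACT at day 12 as well, with a shared batch code (-2.81, interval -3.14 to -2.46). Orthogonal and PD1d/IL-33 ACT at day 12 did not differ beyond counting error (-0.06, interval -0.35 to 0.23).

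At day 26 of orthogonal ACT the Il7r level of CD8 T cells was 124.6 CPM, within the range of the libraries without IL-33. It exceeded that of day 12 with a log2 ratio of 1.57 (interval 1.42 to 1.73). Days 5 and 12 of the same treatment did not differ beyond counting error (-0.22, interval -0.44 to 0.01). Untransduced ACT at day 5 was above non-treated tumors by 0.94 (interval 0.55 to 1.35), short of 2-fold with the 10 CPM added, though its levels were 201.4 and 100.2 CPM; this passed 2-fold under 4 of 8 alternatives. After thinning, the share of CD8 T cells with an Il7r UMI ranged over the libraries from 5.69% to 43.9%.

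Il21r was also lower in most of these comparisons, with smaller ratios. PD1d/IL-33 ACT was lower than PD1d/IL-2v ACT (log2 ratio -1.03, interval -1.25 to -0.81), and orthogonal ACT was lower than untransduced ACT at day 5 (-1.11, interval -1.26 to -0.96). Both lie at the edge of the 2-fold threshold: with TMM factors in place of plain CPM they were -0.99 and -0.99. Orthogonal against PD1d/IL-2v ACT at day 12 gave -0.68 (interval -0.81 to -0.55) and fell to -0.26 with the cell filter of the later experiment. Against untransduced ACT at day 12, with a shared batch code, the ratio was -0.45 with an interval that includes 0 (-0.90 to 0.03). It turned to 0.26 with the later filter and was -0.05 without cycling cells. Orthogonal was above PD1d/IL-33 ACT by 0.35 (interval 0.13 to 0.58).

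Il4ra, by contrast, differed between both IL-33 treatments. In CD8 T cells it was 53.6 CPM in PD1d/IL-2v ACT, 20.8 in PD1d/IL-33 ACT and 46.8 in orthogonal ACT, all at day 12. PD1d/IL-33 ACT lay below PD1d/IL-2v ACT (-1.05, interval -1.37 to -0.72), and orthogonal ACT lay above PD1d/IL-33 ACT (0.88, interval 0.56 to 1.20) and near PD1d/IL-2v ACT (-0.16, interval -0.36 to 0.03). At day 26 of orthogonal ACT it was 22.4 CPM, below day 12 (-0.81, interval -0.98 to -0.64), opposite in sign to Il7r in the same comparison.

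The kinases moved less. Jak3 in CD8 T cells was 65.0 to 72.8 CPM in the 3 IL-33 libraries of days 5 and 12 and 95.4 to 119.8 CPM in the 4 others. Its log2 ratios were -0.35 (PD1d/IL-33 against PD1d/IL-2v ACT, interval -0.58 to -0.12), -0.49 (orthogonal against PD1d/IL-2v ACT, interval -0.65 to -0.33) and -0.56 (orthogonal against untransduced ACT at day 5, interval -0.75 to -0.38). For orthogonal against untransduced ACT at day 12, with a shared batch code, the ratio was -0.55 with an interval that includes 0 (-1.06 to 0.003). Jak1 levels were not split between the IL-33 libraries and the others. It was highest in PD1d/IL-33 ACT at 354.4 CPM and lowest in orthogonal ACT at day 12 at 225.7 CPM, and the ratio of the latter to the former was -0.63 (interval -0.75 to -0.51). Il15ra stayed between 9.6 and 18.6 CPM; its ratio of day 26 to day 12 in orthogonal ACT was 0.55 (interval 0.34 to 0.75).

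Counted over the members that reached 50 UMIs, 3 of 6 were past 2-fold, all lower, in PD1d/IL-33 against PD1d/IL-2v ACT (Il7r, Il21r and Il4ra), beside 3.10% of all genes. In orthogonal against PD1d/IL-2v ACT at day 12 it was 1 of 6 (Il7r, beside 2.08%), against untransduced ACT at day 12 1 of 6 (Il7r, beside 7.95%), and against untransduced ACT at day 5 2 of 6 (Il7r and Il21r, beside 3.09%). Day 26 against day 12 of orthogonal ACT had 1 of 6 (Il7r, higher, beside 3.13%). None of the 6 was past 2-fold in orthogonal against PD1d/IL-33 ACT at day 12 (1.69% of all genes), in day 12 against day 5 of orthogonal ACT (0.653%) or in untransduced ACT at day 5 against non-treated tumors (1.94%). Median log2 ratios of the 6 were -0.69, -0.42, -0.36 and -0.43 in the first 4 of these comparisons and 0.39 for day 26 against day 12. These comparisons share libraries and are not independent of each other. TMM factors moved the ratios by over 0.1 in 5 of the 8 comparisons, by -0.186 to 0.19.

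Taking the 3 IL-33 libraries of days 5 and 12 against the 4 others of these days, CD8 T cells had 4 of 6 members (Il7r, Il21r, Il4ra and Jak3) with levels that did not overlap and were lower with IL-33, beside 13.2% of 10141 genes, and none that were higher, beside 7.84%. For Il4ra this is a near-tie, 46.8 CPM in orthogonal ACT at day 12 and 47.9 CPM, from 13 UMIs, in untransduced ACT at day 12 (log2 ratio -0.03, interval -0.71 to 0.69), and the sign turned with the stricter gate (0.25), the later filter (0.22) and TMM factors (0.02). This grouping joins 2 treatments and 2 days, and no test was made on it. In CD4 T cells 2 of 7 members were lower without overlap (Il7r and Il21r, beside 14.6% of genes) and 1 higher (Il9r, beside 8.57%). For Il7r this is a near-tie too, 207.7 CPM in orthogonal ACT at day 5 and 212.3 CPM in non-treated tumors, from 23 CD4 T cells. Il9r was separated by few UMIs, at 18.0 CPM from 7 UMIs in PD1d/IL-33 ACT and 11.1 CPM in untransduced ACT at day 12. In NK cells 2 of 7 were lower (Il7r and Il15ra, beside 18.5%) and none higher (beside 6.12%). Il2rg, the shared chain, did not overlap either: its CD8 T cell level was 284.2 to 313.3 CPM in the 3 IL-33 libraries and 586.2 to 665.9 CPM in the 4 others. The same held in CD4 T cells (414.7 to 477.0 against 608.9 to 979.6 CPM) and NK cells (307.5 to 405.6 against 515.1 to 787.4 CPM). It also held in DC (89.7 to 142.7 CPM in 3 libraries against 317.1 to 351.2 in 2). For DC the share of all genes without overlap was not counted, so this separation cannot be weighed. Myeloid levels overlapped (164.0 to 231.8 against 208.3 to 378.6 CPM). General T cell genes moved the same way to a smaller extent, with a summed level of Lck, Lat, Cd6, Cd28 and Thy1 in CD8 T cells of 1994 to 2194 CPM against 2507 to 3150 CPM. Their part in the lower receptor levels was not tested.

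The same comparisons in the other gates showed the Il7r difference beyond CD8 T cells. In CD4 T cells orthogonal ACT was below PD1d/IL-2v ACT at day 12 (110.7 and 285.1 CPM, log2 ratio -1.29, interval -1.63 to -0.96), with 1 of the members past 2-fold beside 8.37% of genes. It was also below untransduced ACT at day 5 (207.7 and 514.2 CPM, -1.27, interval -1.48 to -1.06), where Il21r was lower as well (-1.45, interval -1.79 to -1.12) and 10.4% of genes were past 2-fold. PD1d/IL-33 against PD1d/IL-2v ACT gave -0.75 for Il7r in CD4 T cells (interval -1.14 to -0.38) and no member past 2-fold, beside 11.3% of genes.

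In NK cells Il7r was lower with IL-33, at 3.7 CPM from 2 UMIs in PD1d/IL-33 ACT. It was 1.2 and 1.1 CPM from 6 and 3 UMIs in orthogonal ACT at days 5 and 12. The 4 others of these days held 14.0 to 95.9 CPM. The highest NK level, in untransduced ACT at day 12, came with the highest CD8 T cell level (306.0 CPM). How much of these NK values is RNA carried over from T cells was not tested. For Il7r, orthogonal against untransduced ACT at day 5 gave -2.20 (interval -2.34 to -1.97), the 1 member past 2-fold, beside 4.50% of genes. Against PD1d/IL-2v ACT at day 12 it gave -1.11 (interval -1.26 to -0.79), again the 1 member past 2-fold, beside 3.32%. Against untransduced ACT at day 12, with a shared batch code, the member past 2-fold was Jak1, beside 8.63% of genes. Jak1 was at 314.5 and 696.3 CPM (-1.12, interval -1.34 to -0.89), while Il7r, with 3 and 27 UMIs, did not reach 50 UMIs. PD1d/IL-33 against PD1d/IL-2v ACT gave -0.80 (interval -1.22 to 0.01), with no member past 2-fold beside 4.47% of genes. Il15ra in NK cells was 5.6 to 8.0 CPM with IL-33 and 11.3 to 17.8 CPM without, on 3 to 47 UMIs per library. At day 26 Il7r was at 39.6 CPM in NK cells, from 15 UMIs, and at 318.3 CPM in CD4 T cells.

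In myeloid cells no member was past 2-fold, neither in orthogonal against untransduced ACT at day 5 (7.94% of genes) nor in orthogonal against PD1d/IL-2v ACT at day 12 (6.79%). Il4ra came nearest in the former, at 189.6 against 96.0 CPM (0.91, interval 0.71 to 1.12), while Il7r there was level (0.08, interval -0.26 to 0.42). At day 12 Il4ra was level (0.03, interval -0.29 to 0.35), and Il21r was lower on 16 against 152 UMIs (-0.96, interval -1.49 to -0.41). Il7r was lower there as well, on 16 against 110 UMIs (-0.58, interval -1.12 to -0.03).

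**Figure D4:**
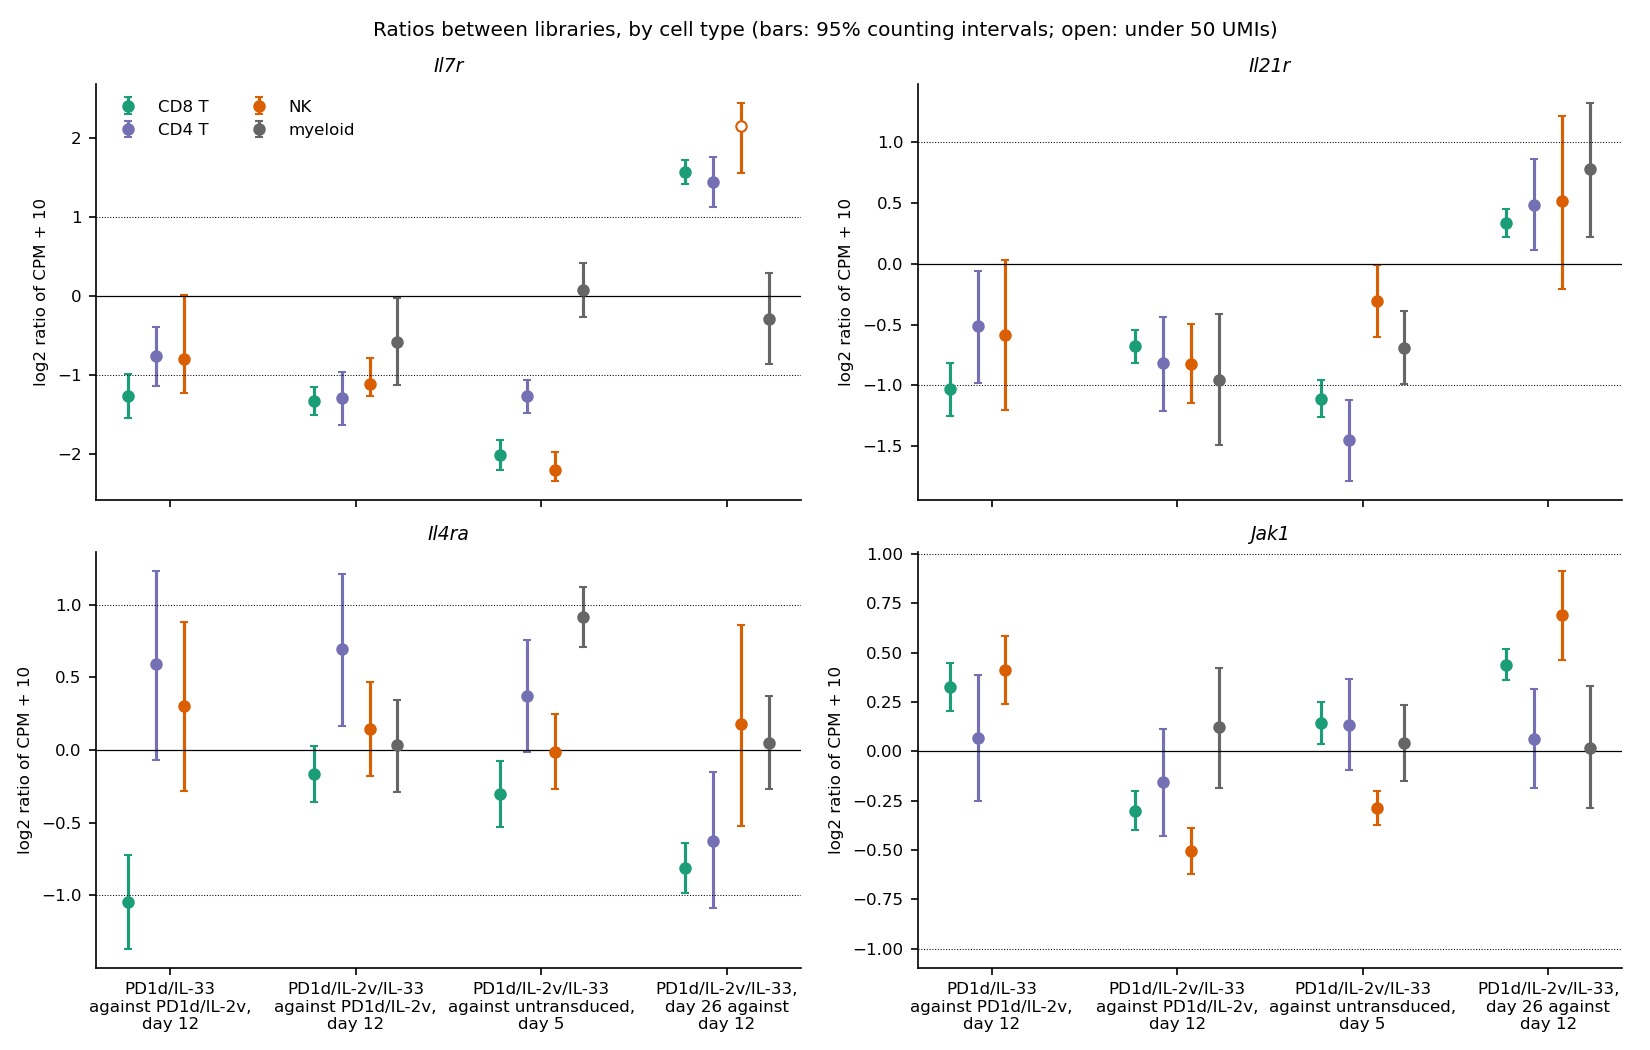
Log2 ratio of CPM with 10 CPM added (vertical axis) of Il7r, Il21r, Il4ra and Jak1 in 4 comparisons of libraries (horizontal axis), in CD8 T, CD4 T, NK and myeloid cells, with 95% counting intervals; dotted lines mark 2-fold and an open point rests on under 50 UMIs. In the 3 lymphocyte types Il7r ratios were below 0 with IL-33 and above 0 for day 26 against day 12. The NK interval of PD1d/IL-33 against PD1d/IL-2v ACT included 0 (-1.22 to 0.01). In myeloid cells Il7r was also lower in orthogonal than in PD1d/IL-2v ACT at day 12 (-0.58, interval -1.12 to -0.03).

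For the pathway list in CD8 T cells, 19 of 25 genes reached 50 UMIs in PD1d/IL-33 against PD1d/IL-2v ACT, and 3 were past 2-fold, all lower: Il2ra (-1.37), Il2rg (-1.06) and Il4, with 0 against 73 UMIs. In orthogonal against PD1d/IL-2v ACT at day 12, 2 of 19 were lower, Il4, again with 0 against 73 UMIs, and Il2rg (-1.12). Orthogonal against PD1d/IL-33 ACT had 3 of 18 higher, the STAT5-induced genes Socs2 (1.66), Il2ra (1.52) and Cish (1.19). Against untransduced ACT at day 12, 2 of 18 were higher, Socs2 (2.24) and Il2ra (1.79). At day 5 orthogonal against untransduced ACT had Stat5a higher (1.02) and Il2rg lower (-1.05) of 19. Day 26 against day 12 had 2 of 19 lower, Socs2 (-1.35) and Il2ra (-1.27). Of all genes, 3.10%, 2.08%, 1.69%, 7.95%, 3.09% and 3.13% were past 2-fold in these comparisons, in the order given.

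Within the CD8 T cells of single libraries, Il7r was found more often in cells with other genes of naive and memory T cells. Cells were thinned to 2000 UMIs, and the share with an Il7r UMI was compared between cells with and without a UMI of a second gene, in libraries with at least 10 cells of each kind. For Tcf7, a transcription factor of naive and memory cells, the shares were 25% with and 10.6% without in non-treated tumors, 50% and 24.4% in untransduced ACT at day 5, 31.5% and 13.8% in PD1d/IL-2v ACT, 15.2% and 4.33% in PD1d/IL-33 ACT, and 21.8% and 3.89%, 18.1% and 5.18%, and 25.8% and 16.0% in orthogonal ACT at days 5, 12 and 26. The share was higher in cells with Tcf7 in each of these 7 libraries, also where Il7r was low overall. The median difference over libraries was 14.4 percentage points for Tcf7, 14.6 for Ccr7, 12.5 for Klf2, 9.71 for S1pr1 and 8.79 for Lef1, genes of lymphoid homing and of the naive state, each higher in every library counted. Il4ra was the 1 member with the same property (7.99 percentage points, 6 of 6 libraries).

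Gzmb and Lag3 went the other way, with counting intervals apart in 3 and 2 of 7 libraries. The Il7r share was lower in cells with the granzyme gene Gzmb (median difference -10.95 percentage points, lower in 7 of 7 libraries) and with the inhibitory receptor Lag3 (-9.87, 7 of 7), and lower with Pdcd1 in 6 of 7 (-5.48) and with Tox, a transcription factor of exhaustion, in 5 of 7 (-8.52). The proliferation gene Mki67 (-3.35), Prf1 (-2.07), Il2rb (-3.01) and Il2ra (-4.50) had smaller differences that were not of 1 sign, and the granzyme gene Gzmc was near 0 in 4 libraries (-0.40). The survival gene Bcl2 also had a small difference (2.25, higher in 5 of 7). Among the members, Jak1 (2.62, higher in 6 of 7), Jak3 (-0.57) and Il21r (-0.10) were near 0. Without thinning the median differences were 20.1 for Tcf7, 27.1 for Ccr7, -13.4 for Gzmb and -10.7 for Lag3, while those of Gzmc (5.35, 5 libraries), Il2ra (0.71), Jak3 (0.56) and Il21r (1.78) turned in sign. For Lef1 the Il7r share was then higher in 6 of 7 libraries (9.86). Cells of 1 library are not replicates, and no test was made.

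**Figure D5:**
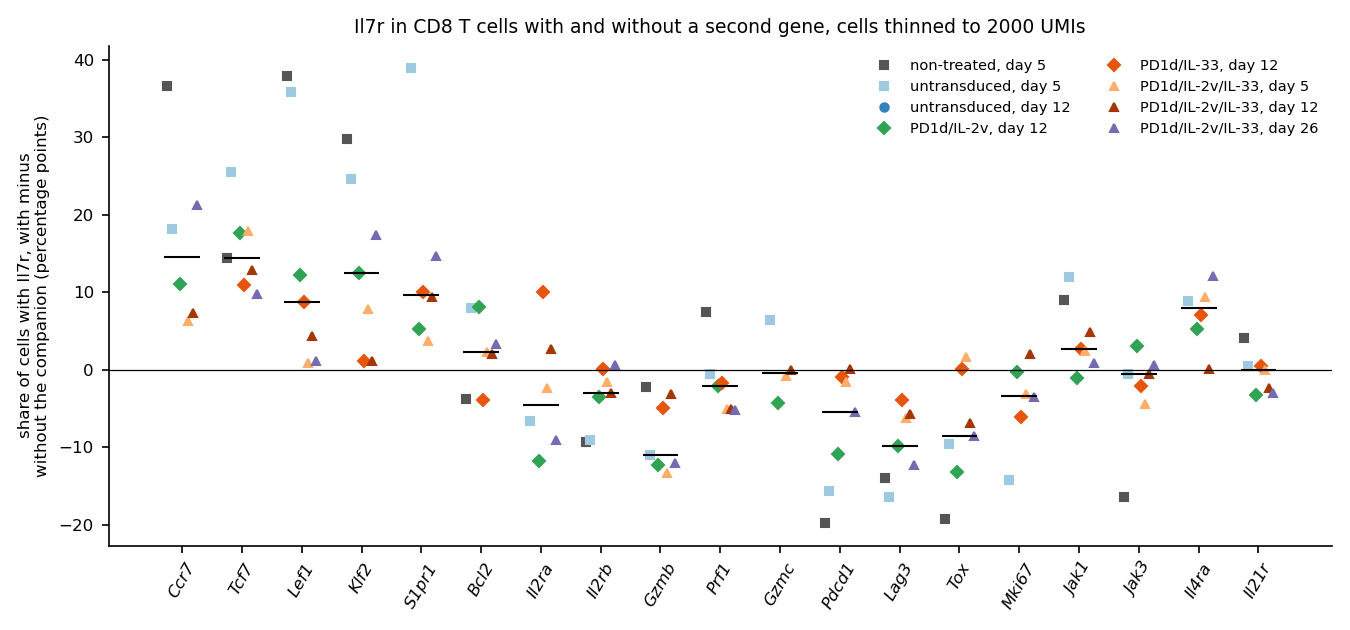
Share of CD8 T cells with an Il7r UMI among cells with a second gene, minus the share among cells without it (vertical axis, percentage points), for each second gene (horizontal axis) and library (points), all cells thinned to 2000 UMIs; short bars mark medians, and untransduced ACT at day 12, with 41 CD8 T cells, has no points. Tcf7, Klf2, Lef1, Ccr7, S1pr1 and Il4ra lay above 0 and Gzmb and Lag3 below 0 in every library counted.

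The genes whose levels ran most alike were ranked for each member by Pearson correlation of log2(CPM + 10) over the 37 sums of a library and gate, among 8667 genes. These correlations describe shared cell types and libraries and carry no p. Il7r was nearest to Tnfrsf4 (0.83), a costimulatory receptor of activated T cells, Itgae (0.78) and Lmnb1 (0.78). Il21r was nearest to Phf11c (0.80), Gpm6b (0.80) and Myl12a (0.79). Il4ra was nearest to Tep1 (0.88), Cd274 (0.85), which encodes PD-L1, and Cysltr1 (0.85). Il9r was nearest to Il1rl1 (0.89), the IL-33 receptor, Tnfrsf25 (0.89) and Cd40lg (0.84). These Il9r correlations rest on few UMIs, 88 in CD4 T cells and 18 in CD8 T cells. The ranked genes needed 500 UMIs, a minimum that Il9r itself did not reach. Il15 was nearest to Aldh2 (0.93), Fgr (0.92) and Stx3 (0.92), and Il15ra to Bst2 (0.83), Fcgrt (0.83) and Bcl11a (0.81). Jak1 ran with genes of cytotoxic cells, Txk (0.95), Ctla2b (0.93) and Fasl (0.93), and Jak3 with Cers4, Leprotl1 and Hdac7 (0.93 each). Of the members, Jak3 (0.78) and Jak1 (0.67) ran closest to Il2rg itself, and Il15 (-0.61) and Il4ra (-0.61) ran opposite to it.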

How the data were processed

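CD45+ cells of pooled B16-OVA tumors were profiled in 8 libraries with Chromium Single Cell V(D)J kits. The authors deposited 1 matrix of UMI counts per gene and barcode; the submitters' processing notes list bcl2fastq, Cell Ranger 2.2.0 and GRCm38. The libraries were joined by Cell Ranger's aggregation; whether reads were subsampled is not given in the sources used here.

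Cells with 500 to 6000 genes, 2000 to 40000 UMIs, 5 to 60% ribosomal and under 10% mitochondrial UMIs were kept, no doublet caller was run, and cells were gated on raw marker UMIs; gates that exclude other lineages' markers remove some doublets. Levels are UMIs per 1000000 UMIs of a gate (CPM), with exact Poisson intervals, and shares have Clopper-Pearson intervals; both cover counting error only. Cell types were compared with edgeR 4.0.16 (quasi-likelihood test, TMM, filterByExpr, Benjamini-Hochberg adjustment over all genes, R 4.3.3) on sums of at least 20 cells, with the library as a block. Libraries were compared by ratios, without a test. Alternatives were DESeq2 1.42.0, other scaling, filters, gates, thinning and leaving out each library.

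The members and lists were chosen with earlier results of these data known. Named were the members, up to 6 called genes of the pathway list per comparison with the largest differences, and the 3 genes most like each member; Il2rg was named beyond this rule as the shared chain, and the motifs were chosen after others had been tried. A companion gene of Il7r that had been planned is not reported here.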

Additional observations from a re-analysis of the deposited data

Results flagged for a closer look

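Cells outside the 5 gates also held UMIs of the members, above the limit that a count of 0 allows. In 140 B cells, taken over all libraries together, the levels were 9.53 CPM for Il7r, 88.95 for Il21r, 122.3 for Il4ra, 17.47 for Il9r, 6.353 for Il15, 206.5 for Jak1 and 31.77 for Jak3. In 51 Il1rl1-positive lymphoid cells, which carry the IL-33 receptor and few T or NK markers, they were 353.8 CPM for Il7r, 9.498 for Il21r, 33.24 for Il4ra, 52.24 for Il9r, 21.37 for Il15ra, 9.498 for Il15, 187.6 for Jak1 and 80.73 for Jak3. The Il21r and Il15 levels of the 51 cells and the Il15 level of the B cells rest on 4 UMIs each, close to the limit of 3 counts. After thinning, 0 of the 51 cells had an Il21r or Il15 UMI. The Il7r and Il9r levels of these 51 cells lay above the pooled level of each of the 5 gates. But 5 of the cells came from PD1d/IL-33 ACT, 9, 16 and 20 from orthogonal ACT at days 5, 12 and 26, and 1 from untransduced ACT at day 12. The pooled gates cover all treatments, so cell type and treatment are mixed in this comparison. Libraries with at least 20 such cells were untransduced and orthogonal ACT at day 5 (66 and 31 B cells) and orthogonal ACT at day 26 (20 Il1rl1-positive cells). Levels by library are not given here.

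For 2 members the log2 ratio of orthogonal to untransduced ACT at day 5 had opposite signs in different cell types, with counting intervals that leave out 0. Il4ra was 0.9124 in myeloid cells and -0.3031 in CD8 T cells. Jak1 was 0.146 in CD8 T cells and -0.2882 in NK cells. The CD8 T cell ratio of Jak1 turned to -0.01 without cycling cells and -0.06 with thinned cells. The differences between cell types were not tested, since each condition has 1 library.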

How the results depend on the processing

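Of 174 alternative values of the counts of called members, 160 were within 1.5 times the reported count. Of 801 alternative values for single members between cell types, 12 lost and 15 gained a call. None changed direction where the reported or the alternative value was called. Changes of sign between uncalled values were not counted. Without the replicate block (the library term) the members called between CD4 T and CD8 T cells went from 3 to 1, with Il7r at 1.14 (adjusted p = 0.099) and Jak3 at 0.42 (adjusted p = 0.064). Labels give each condition a single replicate, so no pairing of replicates was possible. For mature against other DC the count of 1 became 0 with DESeq2, 3 with no filter on low counts and 4 with a minimum of 10 cells, and leaving out 1 library gave 0 to 1, with 0 without orthogonal ACT at day 26 (Il15ra adjusted p = 0.060); it could not be fitted without orthogonal ACT at day 5, with the later cell filter or with the stricter gate. For C1q-positive against C1q-low cells the count of 0 became 1 with no filter, and leaving out 1 library gave 0 to 2, with 2 without orthogonal ACT at day 5 (Il15 -1.19, adjusted p = 0.010; Jak1 -0.58, adjusted p = 0.026). Among CD8 T cell ratios, adding 1 CPM in place of 10 gave 1 member past 2-fold in place of 0 for orthogonal against PD1d/IL-33 ACT (Il4ra, 1.13) and 2 in place of 1 for day 26 against day 12 (Il4ra, -1.03). TMM factors gave 1 in place of 2 for orthogonal against untransduced ACT at day 5. In PD1d/IL-33 against PD1d/IL-2v ACT, Il21r fell short of 2-fold with TMM factors, the later cell filter, without cycling cells or with thinned cells. Untransduced ACT at day 5 against non-treated tumors had 1 in place of 0 (Il7r) with the later cell filter, the stricter gate, without cycling cells or with thinned cells. The cause was not tested. Depth limits Il9r and Il15 in CD8 T cells, with 18 and 62 UMIs in all, and every ratio to untransduced ACT at day 12, which had 41 CD8 T cells.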
